A study of Mus musculus with 8 samples.

Results

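The ATP-binding cassette (ABC) transporters were examined in satellite cells, the stem cells that lie along muscle fibres, from resting and injured mouse muscle. The members were every gene that the array names with Abc, a subfamily letter from a to g and a number. They were selected on the array's gene name alone, and no signal entered the choice. This gave 49 genes of the 21249 named on the array, measured by 68 probes. They were 15 genes of subfamily a, 10 of b, 10 of c, 4 of d, 1 of e, 3 of f and 6 of g. The family was proposed for description with results of this same comparison known, so counts of its members are descriptions.

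ABC proteins bind and hydrolyse ATP in a pair of conserved cassettes. In subfamilies a, b, c, d and g the cassettes drive or gate the passage of lipids, peptides, drugs, metals, fatty acyl groups and other molecules across a membrane. Subfamilies e and f have the cassettes but no membrane part, and their members act on ribosomes. In satellite cells the family is best known through ABCG2, whose export of a DNA dye defines the side population in flow cytometry.

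Cells were sorted from skeletal muscle of C57BL/6 mice, labelled as males of 3 months and, in the authors' column names, as WT (wild type). The sort kept cells with integrin alpha 7 and removed those with CD31, CD45, CD11b or Sca1. The basal group was untreated muscle (4 arrays), and the injured group was muscle 3 days after cardiotoxin (4 arrays), a snake toxin that destroys fibres. Total RNA of each labelled biological replicate was read on 1 single-colour array, with no pooling of animals stated. The series title calls the cells quiescent and activated, and the comparison asks which transcripts differ between those states. Whether replicates came from separate animals is not stated beyond the word biological, so p-values measure the spread between these samples.

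Between 50.1% and 56.7% of the spots of an array were well above background and none was saturated. The basal arrays shared a slide and a scan, and the injured arrays shared another. Effects of slide or scan and of injury cannot be told apart. Pax7, the factor by which satellite cells are identified, was above background on all 8 arrays and was 2.95 ± 0.21 lower on the log2 scale in injured cells. Myf5, another marker, was not above background on any array. Basal arrays 1 and 2 stood apart from basal 3 and 4 in Pecam1, which encodes the CD31 that the sort removed (3.20 and 2.87 against -2.20 and -3.22). Basal 1 also had the highest summed signal of 8 proliferation markers among the basal arrays, 15.4 against 2.20 to 6.91 on the others, and injured arrays had 41.1 to 58.2. Injured arrays 2, 3 and 4 went against the male label, with Xist at 6.37 to 6.57 and the Y-linked Ddx3y not above background. Injured 1 had Xist at 1.72 and Ddx3y above background. The 4 basal arrays had Ddx3y above background and, in replicate order, read 3.85, 2.15, -1.12 and -4.97 for Xist. Sex therefore cannot be told apart from injury for those 3 arrays. With injured 1 as the only injured array, assumed to vary like the basal ones, 1 ABC gene of 31 was called higher and 5 lower, beside 751 (5.59%) and 980 (7.30%) of all 13433 genes tested.

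Levels are log2 signals relative to the 75th percentile of the same array, so 0 is a probe as bright as that percentile. Differences are injured minus basal on that log2 scale, with a moderated standard error and n = 4 arrays a group. A gene was called at an adjusted p under 0.05 from limma fitted to all 13433 genes tested. Of the 49 ABC genes, 31 were above background on at least 3 arrays of a group and were tested. Of these, 9 were called higher in injured cells, where 35.5% of all genes tested were, and 14 were called lower, where 24.7% of all genes tested were. The 23 called in either direction stand beside 60.1% of all genes tested. The groups did not overlap for 22 of the 31 (9 higher and 13 lower), beside 57.2% of all genes tested. The median difference was -0.38 over the 31 ABC genes and 0.17 over all genes tested. The sign of the first depended on the filter and the table: among genes above background on all 8 arrays it was 0.35 (0.18 over all genes), and it was 0.069 in the authors' deposited table (0.48 over all genes). Since the comparison was known when the family was proposed, nothing is read from these shares.

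The direction differed by subfamily. In subfamily a, 9 of 10 genes tested were lower, none was higher and the median was -3.21, or -1.80 with genes not above background on any injured array at their bound. Of those 9, 5 were not above background on any injured array. In subfamilies e and f all 4 genes tested were higher, by 0.60 to 1.67. Subfamily b had 2 of 6 genes higher and none lower. Subfamily c had 2 of 7 higher and 3 lower, subfamily d had 1 of 3 higher and 2 lower, and the single gene of subfamily g that was tested was not called. Of the 14 lower genes, 7 were not above background on any injured array. They entered the test only through the basal arrays and had to be lower to be there. Abca8a, above background on 1 injured array, also passed the filter only through the basal arrays. Of the 4 subfamily a genes above background on all 8 arrays, Abca2, Abca5 and Abca17 were lower and Abca7 was not called. Of the 21 members above background on all 8 arrays, 8 were called higher and 6 lower, beside 3968 (37.8%) and 2507 (23.9%) of the 10509 genes that passed the same filter. In the authors' deposited table, which holds other normalized values of the same arrays, 5 ABC genes were called higher and 3 lower. Higher genes were 81.3% of all genes called there, against 59.0% in the scanner signals. Fewer cells of a type and less RNA per cell cannot be told apart in RNA from a pool of cells.

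**Figure D1:**
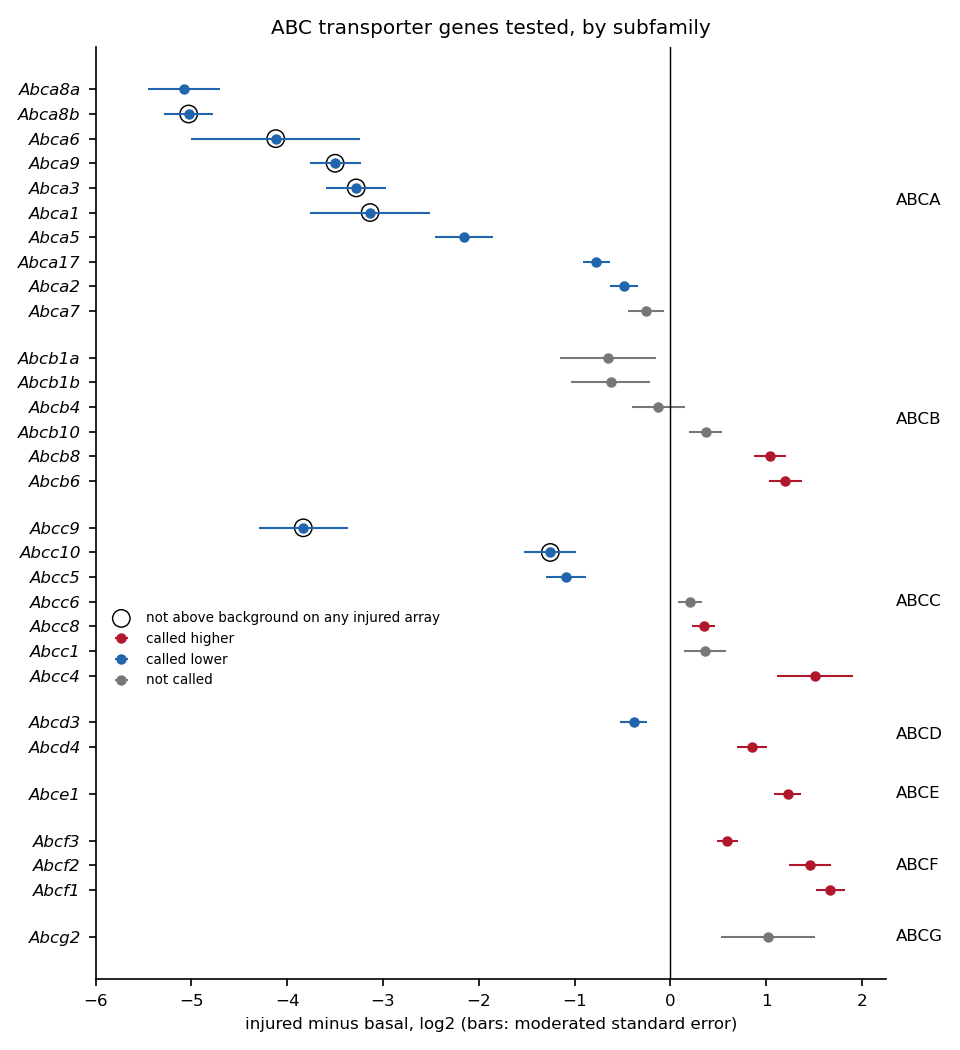
Difference between injured and basal cells (log2, with moderated standard error, n = 4 arrays a group) for the ABC genes tested and reported here, by subfamily. Red is called higher, blue called lower and grey not called, and circled points were not above background on any injured array. Called subfamily a genes all lie left of 0 and the genes of subfamilies e and f right of it.

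Large falls were seen in a run of 5 subfamily a genes that lie side by side on chromosome 11, Abca8b, Abca8a, Abca9, Abca6 and Abca5. Their probes span 335 kb of the mm9 build (chr11:109795589-110131022), and all 5 were lower in injured cells, as were 24.7% of all genes tested. Abca8b, Abca8a, Abca9 and Abca6 passed the filter only through the basal arrays, so the filter largely set their direction. These full-length lipid transporters form a subgroup of ABCA5-like proteins whose cargoes are less well known than that of ABCA1. Abca8a (probe at chr11:109945491-109945550) read 1.21, 1.84, 2.74 and 3.09 on the basal arrays. It read -3.02, -2.89, -2.87 and -2.65 on the injured arrays, where it was above background on 1 of 4. The difference was -5.08 ± 0.38 (adjusted p = 2.19e-05, limma), and every injured array lay below every basal array.

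Abca8b (probe at chr11:109795589-109795648) read -0.68, 0.26, 0.27 and 0.39 on basal arrays and -5.35, -4.92, -4.92 and -4.69 on injured ones. The groups did not overlap and the difference was -5.03 ± 0.26 (adjusted p = 4.39e-06). None of the injured values was above background, so the fall is better given as at least 9.53-fold. Such a bound sets the basal mean against the higher, on each injured array, of the probe's own value and the lowest signal well above background there.

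Abca6 was the least even of the run. Its basal values were -1.43, -3.49, 1.07 and 0.57, above background on 3 arrays, and its injured values were -5.30, -4.89, -4.94 and -4.63, above background on none. The difference was -4.12 ± 0.88 (adjusted p = 0.0038), or at least 5.18-fold lower, and basal 2 lay nearest to the injured arrays. Abca9 was steadier, at -1.61, -1.78, -0.56 and -1.31 on basal arrays and -5.14, -4.78, -4.78 and -4.56 on injured arrays. Its difference was -3.50 ± 0.27 (adjusted p = 2.4e-05), at least 3.67-fold lower.

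Abca5, whose protein sits in lysosomes and late endosomes, was the only gene of the run above background on all 8 arrays. It read -0.37, 0.81, 1.01 and 0.81 on basal arrays and -1.86, -1.73, -1.39 and -1.37 on injured arrays. Basal 1 was the lowest of its group, but the groups did not overlap and the difference was -2.15 ± 0.30 (adjusted p = 0.000415). A dimmer probe of Abca5 was also called lower, with a smaller difference of -1.50 ± 0.44 (adjusted p = 0.0189, each probe fitted on its own). Its groups overlapped, and it was above background on 3 basal arrays and 1 injured array.

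The genes around the run did not share 1 direction. Of the 10 nearest genes in chromosome order, 6 before it and 4 after it, 7 were tested. Wipi1 (0.68 ± 0.19) and Prkar1a (0.92 ± 0.17) were called higher, Arsg (-1.77 ± 0.31) and Fam20a (-2.34 ± 0.41) lower, and Map2k6, which follows Abca5, was not called (0.14 ± 0.27, adjusted p = 0.662). These neighbours were taken by position, from the gene order of the GRCm38.p6 RefSeq table.

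**Figure D2:**
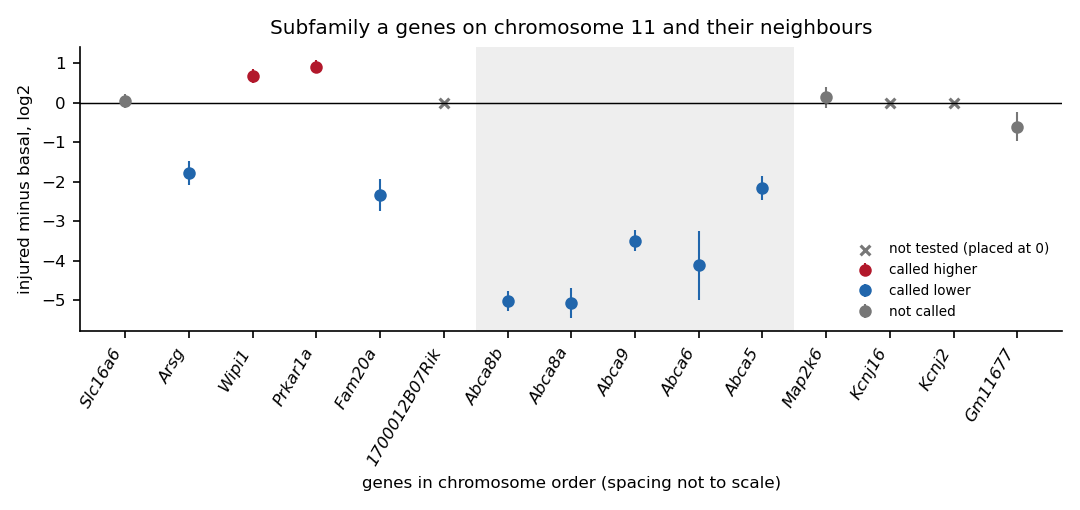
Difference between injured and basal cells (log2, with moderated standard error) for the 5 subfamily a genes of the chromosome 11 run, on grey ground, and for the genes on each side in chromosome order. The 5 ABC genes lie between -5.08 and -2.15, while tested neighbours lie on both sides of 0. Of the ABC genes, all but Abca5 passed the filter only through the basal arrays.

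The start-site windows of the run were not alike in CpG content. Those of Abca8a and Abca9, which hold few CpG, are shown beside that of Abcf1, a ribosome-acting member. Each holds 300 bases around the RefSeq start (GRCm38.p6), most of them before it, 5′ to 3′ on the gene's strand, with CpG dinucleotides in capitals. The first is chr11:110095888-110096187, the next chr11:110168104-110168403 and the last chr17:35969701-35970000, all on the minus strand.
Abca8a: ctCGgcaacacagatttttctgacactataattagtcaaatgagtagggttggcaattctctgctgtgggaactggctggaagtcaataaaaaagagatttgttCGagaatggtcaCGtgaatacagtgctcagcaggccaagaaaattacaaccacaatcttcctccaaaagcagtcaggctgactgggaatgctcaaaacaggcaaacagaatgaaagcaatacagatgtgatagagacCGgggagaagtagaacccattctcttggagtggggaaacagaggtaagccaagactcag
Abca9: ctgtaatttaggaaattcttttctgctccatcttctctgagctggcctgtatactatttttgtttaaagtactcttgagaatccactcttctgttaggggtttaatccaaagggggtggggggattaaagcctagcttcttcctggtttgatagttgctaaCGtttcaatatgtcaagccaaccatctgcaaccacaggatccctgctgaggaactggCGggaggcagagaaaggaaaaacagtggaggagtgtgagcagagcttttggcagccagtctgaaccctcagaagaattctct
Abcf1: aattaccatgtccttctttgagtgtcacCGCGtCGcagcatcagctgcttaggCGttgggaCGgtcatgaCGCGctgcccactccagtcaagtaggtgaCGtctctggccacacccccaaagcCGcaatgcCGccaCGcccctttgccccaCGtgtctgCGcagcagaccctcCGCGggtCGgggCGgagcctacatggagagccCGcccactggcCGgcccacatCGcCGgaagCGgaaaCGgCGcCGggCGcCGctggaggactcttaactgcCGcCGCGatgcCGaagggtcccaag

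The Abca8a window has 4 CpG dinucleotides and that of Abca9 has 2, or 0.277 and 0.131 of the number that their C and G content would give by chance pairing. The Abcf1 window has 31, a ratio of 0.948. Over the 10554 tested genes with such a window the median ratio was 0.731. Low CpG content was not a feature of the lower members as a set, because the 12 with a window ranged from 0.131 to 1.12 with a median of 0.762, and Abca8b and Abca5, in the same run, had 0.506 and 1.02. The 6 higher members with a window ranged from 0.547 to 1.04, with a median of 0.909. Windows were found for 37 of the 49 members. The letters CACGTG, the E-box bound by many helix-loop-helix factors, were searched on both strands, as were TATAAA and GGGCGG, and none of the 3 motifs contains another. They occur in the Abca8a and Abcf1 windows, in 3 of 12 lower and 2 of 6 higher members, and in 9.79% of the windows of all genes tested. TATAAA was found in 1 of 12 lower and 1 of 6 higher members (8.87% of all genes tested), and GGGCGG in 7 of 12 and 5 of 6 (59.7%). A match is a string of letters and was not tested as a binding site.

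Among the other subfamily a genes, Abca1 and Abca3 were also lower. ABCA1 exports cholesterol and phospholipid to apolipoproteins, and ABCA3 loads phospholipid into lamellar bodies. Abca3 read -2.26, -0.67, -1.19 and -1.75 on basal arrays and -4.58, -4.89, -4.90 and -4.63 on injured arrays, none of the latter above background. The groups did not overlap, and the difference was -3.28 ± 0.31 (adjusted p = 6.83e-05), at least 3.30-fold lower. Abca1 varied more between basal arrays, at -3.21, -0.89, 0.11 and -1.96, with basal 1 not above background. Its injured values were -4.10, -4.86, -4.86 and -4.65, all not above background. The difference was -3.13 ± 0.62 (adjusted p = 0.00259), at least 3.26-fold lower.

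Changes of the remaining subfamily a genes were smaller. Abca17, next to Abca3 on chromosome 17, was lower by 0.77 ± 0.14 (adjusted p = 0.00163), with 6.51 to 7.02 on basal and 5.84 to 6.07 on injured arrays. Its other probe was not above background on any array, and which probe measures the gene was not tested. The call for Abca17 was lost when the probes were averaged (-0.069, adjusted p = 0.752). Abca2, a lysosomal lipid transporter best known in brain, was lower by 0.48 ± 0.15 (adjusted p = 0.0191) on its brighter probe and by 0.84 ± 0.29 (adjusted p = 0.0357, probe fit) on the dimmer. Abca7, a phospholipid transporter of phagocytic cells, was not called (-0.25 ± 0.19, adjusted p = 0.274), and its groups overlapped. The falls of Abca8a (-3.50, adjusted p = 0.000608) and Abca8b (-2.11, adjusted p = 0.00659) were also called in the authors' deposited table. In that table the other 7 called genes of subfamily a kept a negative difference, from -1.68 for Abca6 to -0.33 for Abca5, and none of the 7 was called.

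Genes that work with ABCA1 gave a mixed picture. Of 14 genes of cholesterol efflux and of the LXR receptors that switch on Abca1, 13 were tested. Among them 1 was higher and 5 lower, with a median of -0.064. Over all genes tested, 35.5% were higher and 24.7% lower, with a median of 0.17. Apoe, an acceptor of the exported lipid, fell by 5.38 ± 0.24 (adjusted p = 2.1e-06) and Nr1h3, which encodes LXR alpha, by 3.85 ± 0.33 (adjusted p = 3.96e-05). No injured array had Nr1h3 above background, and its fall is at least 11.1-fold. Npc2, which moves cholesterol out of lysosomes, was the gene that rose (0.70 ± 0.15, adjusted p = 0.00388). Abcg1, the partner of ABCA1 in cholesterol efflux, was above background on 2 basal arrays and 1 injured array and was not tested. Its basal values ran from -5.16 to -0.21.

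Not all lists of cell type markers moved with these genes. Of all genes tested, 24.7% were lower and 35.5% higher. Satellite cell markers had 6 lower and 2 higher of 9 tested, with a median of -1.86. Macrophage and leukocyte markers had 1 lower and none higher of 7 tested, with a median of -0.048. Of 10 markers of fibro-adipogenic progenitors, the connective tissue cells of muscle, 7 were tested, 5 were lower and none was higher. Of these markers, 7 to 8 were above background on a basal array and 3 to 5 on an injured array. Some therefore passed the filter only through the basal arrays and could hardly be called higher. Their summed signal, on a linear scale where 1 is the 75th percentile, was 58.5 to 87.1 on basal and 8.09 to 11.05 on injured arrays. The defining marker Pdgfra was not above background on any of the 8 arrays, and Dcn fell by 7.79 ± 0.59. The part of these markers in the falls of subfamily a was not tested. Of the 14 lower ABC genes, 11 had their lowest basal value on basal 1. How often this held among all genes called lower was not counted, so nothing is read from the 11. Basal 1 was the basal array with the lowest summed satellite cell markers (180 against 239 to 296 on the others). A link between the 2 was not tested. Omitting basal arrays 1 and 2, chosen after the values were seen, gave 14 ABC genes called lower and 10 higher.

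Subfamily c also held a large fall. ABCC8 and ABCC9 are the sulphonylurea receptors SUR1 and SUR2, which do not transport but gate the ATP-sensitive potassium channel. Abcc9 (probe at chr6:142536920-142536979, mm9) read -0.73, 0.09, -0.23 and -0.09 on basal arrays and -5.12, -4.78, -3.16 and -3.22 on injured arrays, none of which was above background. The groups lay far apart, and the difference was -3.83 ± 0.47 (adjusted p = 0.000212), at least 7.75-fold lower. Abcc9 was called lower in the authors' deposited table as well (-1.49, adjusted p = 0.0249).

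The pore subunits were lower too. Kcnj8, which lies next to Abcc9 on chromosome 6 and encodes Kir6.1, read -1.96, -2.46, -2.53 and -3.28 on basal arrays and -5.28, -4.62, -4.93 and -4.71 on injured ones. Its difference was -2.33 ± 0.28 (adjusted p = 0.000196), at least 1.55-fold lower. Kcnj8 was above background on 3 basal arrays and no injured array. Like Abcc9, it passed the filter only through the basal arrays and had to be lower. Kcnj11, which encodes Kir6.2, was above background on all 8 arrays and was lower by 0.87 ± 0.16 (adjusted p = 0.00183). Cmas, on the other side of Abcc9, was called higher (0.78 ± 0.22, adjusted p = 0.0147).

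Abcc9 and Kcnj8 are also known as genes of pericytes, the mural cells of capillaries. Of 10 pericyte and smooth muscle markers, all were tested, 6 were lower and none was higher, beside 24.7% and 35.5% of all genes tested. Rgs5 fell by 5.95 ± 0.27 and Pdgfrb by 3.59 ± 0.29, or at least 18.2-fold and 3.78-fold. Neither was above background on an injured array, so both passed the filter only through the basal arrays. The summed signal of the list was 1216 to 1398 on basal and 936 to 1071 on injured arrays. Most of that sum came from Mcam, which was above background on all 8 arrays and fell by 0.32 ± 0.11 (adjusted p = 0.0328). Without it, and with dim markers included, the sum was 98.1 to 156 on basal and 20.1 to 33.9 on injured arrays, a measure chosen after its values were seen. The part of pericyte RNA in the Abcc9 values was not tested.

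Abcc8 was measured by 2 probes that overlap by 47 of 60 bases and gave different answers, so their sequences are shown. The bright probe lies at chr7:53359921-53359980 (mm9) and the dim one begins 13 bases further along. A stretch of 30 bases is printed for each, the first 30 of the bright and the last 30 of the dim, with the bases present in both probes in capitals.
Abcc8 bright probe: agcgtgccgccccGCACCTCACTTGCTTGC
Abcc8 dim probe: CTGTAAATCACTTGTAAataaagaaattaa

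The bright probe read 2.76, 2.54, 2.44 and 2.39 on basal arrays and 2.91, 2.84, 2.88 and 2.90 on injured arrays. That is a rise of 0.35 ± 0.12 (adjusted p = 0.0349), with no overlap between the groups. The call was lost in 14 of 19 alternatives, among them quantile normalization (0.097, adjusted p = 0.487), normexp with quantile normalization (0.0046, adjusted p = 0.963), no filter on dim probes (adjusted p = 0.0689) and leaving out any injured array. The dim probe was above background on 3 basal arrays and no injured array, and its difference was -1.52 ± 0.33 (adjusted p = 0.00423, each probe fitted on its own), at least 1.25-fold lower. The mean of both probes was called lower (-0.59, adjusted p = 0.0173). Which probe measures Abcc8 was not tested, and it stands among the 9 higher genes through its bright probe alone.

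The multidrug resistance proteins of subfamily c split in direction. Abcc4 (MRP4), an exporter of cyclic nucleotides and prostaglandins, read -1.20, -2.44, -2.61 and -3.37 on basal arrays and -0.96, -0.97, -0.60 and -1.05 on injured arrays. Every injured array was above every basal array, with basal 1 close below them, and the difference was 1.51 ± 0.40 (adjusted p = 0.0104). It was 0.069 in the authors' deposited table (adjusted p = 0.893). Abcc5 (MRP5), also an exporter of cyclic nucleotides, read 1.98, 2.45, 2.74 and 2.78 on basal and 1.35, 1.62, 1.11 and 1.54 on injured arrays, without overlap. It was lower by 1.09 ± 0.21 (adjusted p = 0.00208), and its 4 probes were all called lower, with differences of -1.49 to -1.09. The authors' deposited table gave no such fall (0.040, adjusted p = 0.954).

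Abcc10 (MRP7), which exports lipophilic drugs, read -2.64, -1.88, -1.49 and -1.76 on basal arrays and -2.96, -2.92, -3.65 and -3.25 on injured arrays, none above background. Its difference was -1.25 ± 0.27 (adjusted p = 0.00387), at least 2.02-fold lower, and basal 1, not above background, lay near the injured arrays. It was -0.36 in the authors' deposited table (adjusted p = 0.43). Abcc1 (MRP1), which exports glutathione conjugates, was not called (0.36 ± 0.22, adjusted p = 0.18), nor was Abcc6, whose loss in humans calcifies elastic tissue (0.21 ± 0.13, adjusted p = 0.195). Of 16 genes of the drug response and of glutathione, which supplies these exporters, 12 were tested. Among them 4 were higher and 6 lower, beside 35.5% and 24.7% of all genes tested. Gsr, which keeps glutathione reduced, rose by 2.30 ± 0.41 (adjusted p = 0.00146), and Gstm1, which couples it to drugs, fell by 3.85 ± 0.21 (adjusted p = 5.85e-06). Abcc2, the bile canalicular exporter, was above background on 1 basal array, and Abcc3 and Abcc12 on none of the 8 arrays.

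**Figure D3:**
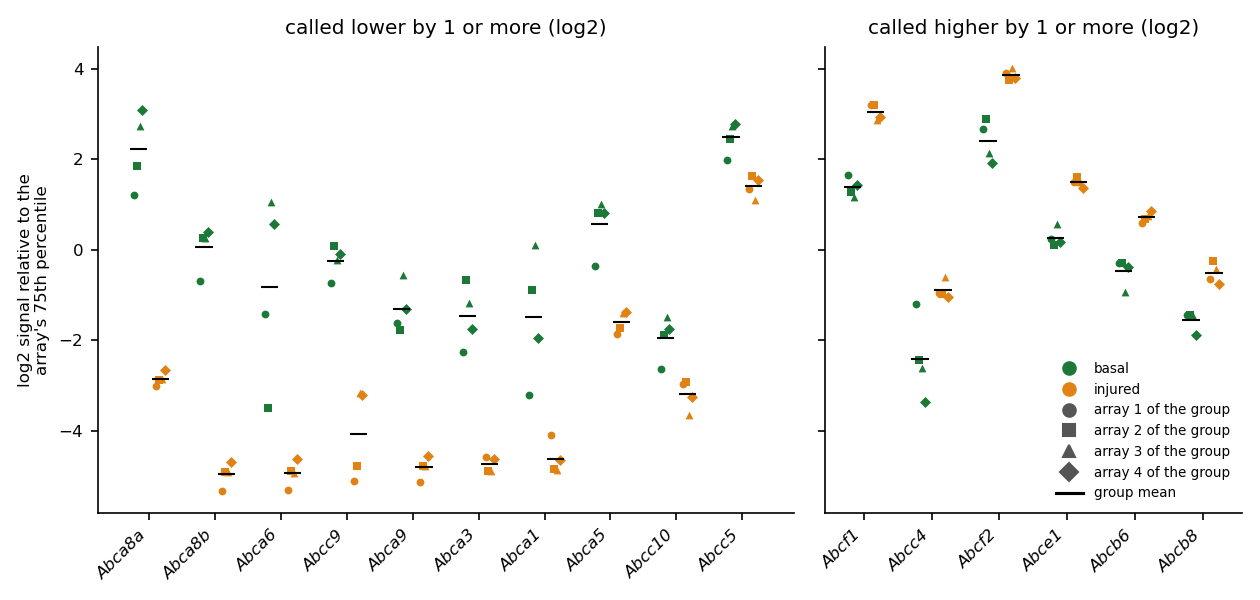
Value on each array (log2 signal relative to the array's 75th percentile) for the 16 ABC genes called with a difference of 1 or more, with the group means as lines. Injured arrays lie below all basal arrays for the 10 genes on the left and above them for the 6 on the right. On the left, all but Abca5 and Abcc5 passed the filter only through the basal arrays. The groups did not overlap for 57.2% of all genes tested.

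The members that act on ribosomes rose together. ABCE1 splits ribosomes into subunits after termination. ABCF1 aids initiation with the factor eIF2, and ABCF2 and ABCF3 are related proteins of which ABCF3 is nearest to yeast Gcn20, an activator of the kinase that phosphorylates eIF2. Abcf1 (probe at chr17:36093915-36093974, mm9) read 1.65, 1.28, 1.18 and 1.43 on basal arrays and 3.21, 3.19, 2.88 and 2.93 on injured arrays. The groups did not overlap and the difference was 1.67 ± 0.15 (adjusted p = 5.23e-05). Its other probe rose by 1.47 ± 0.14 (adjusted p = 6.58e-05, probe fit).

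Abcf2 read 2.67, 2.90, 2.15 and 1.92 on basal arrays and 3.91, 3.75, 4.02 and 3.79 on injured arrays, a rise of 1.46 ± 0.22 (adjusted p = 0.00064). Abce1 read 0.25, 0.10, 0.56 and 0.16 and then 1.49, 1.62, 1.51 and 1.36, a rise of 1.22 ± 0.14 (adjusted p = 0.000154). Both genes had every injured array above every basal array. Abcf3 rose less, by 0.60 ± 0.11 (adjusted p = 0.00187), from 1.48 to 1.75 on basal arrays to 2.19 to 2.26 on injured ones. In the authors' deposited table the rises of Abcf1 (2.68), Abce1 (2.20) and Abcf2 (1.58) were called, and that of Abcf3 was not (1.21, adjusted p = 0.0991).

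Genes that act beside these proteins were examined as well. Of 12 genes of ribosome recycling and initiation, all 12 were tested, 10 were higher and none lower, with a median of 1.50. Over all genes tested, 35.5% were higher and 24.7% lower, with a median of 0.17. Eif6, which keeps the subunits apart, rose by 2.72 ± 0.24 (adjusted p = 4.65e-05), and Etf1, the release factor that acts before ABCE1, by 1.94 ± 0.18 (adjusted p = 6.06e-05). All 8 proliferation markers were also higher in injured cells, Mki67 by 2.65 ± 0.42. Abcf3 lies within 156 kb of Abcc5 on chromosome 16 (probe positions, mm9), and the 2 were called in opposite directions.

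Subfamily b holds drug exporters at the cell surface and transporters of mitochondria and lysosomes. Abcb6, which moves porphyrins, read -0.28, -0.30, -0.93 and -0.39 on basal arrays and 0.59, 0.68, 0.76 and 0.86 on injured arrays. Injured arrays were all higher, and the difference was 1.20 ± 0.17 (adjusted p = 0.000465). Abcb8, a transporter of the inner mitochondrial membrane tied to iron export, read -1.45, -1.43, -1.46 and -1.88 on basal arrays and -0.64, -0.25, -0.42 and -0.75 on injured arrays. Its rise was 1.04 ± 0.16 (adjusted p = 0.000799), again without overlap. A second Abcb8 probe was not called (0.45 ± 0.28, adjusted p = 0.199, probe fit) and another was not above background on any array. In the authors' deposited table the rise of Abcb6 was called (1.31, adjusted p = 0.0271) and that of Abcb8 was not (0.72, adjusted p = 0.144).

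Abcb10, a mitochondrial transporter needed for haem synthesis, was just outside the threshold (0.37 ± 0.17, adjusted p = 0.0919), and was called higher without basal 1 (0.47, adjusted p = 0.0374). Injured values were 0.64 to 0.85 and basal values -0.06 to 0.69. Of 20 genes of mitochondrial iron-sulphur and haem synthesis, 17 were tested, 10 were higher and 2 lower, with a median of 0.56. The shares over all genes tested were 35.5% higher and 24.7% lower, with a median of 0.17. Glrx5, which helps to build iron-sulphur clusters, rose by 2.78 ± 0.24 (adjusted p = 4.12e-05). Ppox, a late step of haem synthesis, fell by 1.30 ± 0.20, and Alas1, the first step, fell by 0.59 ± 0.20.

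The P-glycoproteins Abcb1a and Abcb1b and the phosphatidylcholine exporter Abcb4 lie in a row on chromosome 5, within 211 kb by their probes, and none of the 3 was called. Abcb1a read -0.66, -1.37, -0.65 and -0.86 on basal arrays and -1.97, -2.20, -2.10 and 0.14 on injured arrays. Injured 4 was above all basal arrays and the other 3 injured arrays below them, and the difference was -0.65 ± 0.50 (adjusted p = 0.286). Without injured 4, Abcb1a was called lower (-1.21, adjusted p = 0.00235). Abcb1b was -0.62 ± 0.41 (adjusted p = 0.218), and it was above background on only 2 injured arrays. Abcb4 had basal values of -0.93, -0.91, 0.13 and 0.11 around injured values of -0.68 to -0.39. Its difference was -0.13 ± 0.28 (adjusted p = 0.707), and it became -0.65 (adjusted p = 0.00453) without basal 1 and 2. That omission was chosen after the values were seen and removes the lowest basal values of Abcb4. Abcb5, Abcb9 and Abcb11 were not above background on any array. TAP1 and TAP2, which belong to subfamily b under other names, load peptides for antigen presentation. Tap2 was lower by 0.79 ± 0.25 (adjusted p = 0.0219), and Tap1 was not called (-0.66 ± 0.28, adjusted p = 0.0654). Cftr, a chloride channel of subfamily c under another name, was not above background on any array.

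Subfamily d carries fatty acyl groups into peroxisomes, apart from ABCD4, which brings vitamin B12 out of lysosomes. Abcd4 rose by 0.85 ± 0.16 (adjusted p = 0.00169), from 0.01, 0.31, 0.69 and 0.24 on basal arrays to 1.18, 1.12, 1.16 and 1.19 on injured ones. The injured values were close together and all above the basal ones.

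Abcd3, the main transporter of the peroxisomal membrane, read 1.65, 1.89, 1.77 and 1.43 on basal arrays and 1.18, 1.37, 1.44 and 1.23 on injured arrays. The groups overlapped, and the difference of -0.38 ± 0.14 was just inside the threshold (adjusted p = 0.0408). It was no longer called when any of basal 1, 2 or 3 or any injured array was left out, at adjusted p of 0.052 to 0.111. In the authors' deposited table neither Abcd4 (1.12, adjusted p = 0.0576) nor Abcd3 (0.29, adjusted p = 0.522) was called. Abcd2 was not above background on any array. Of 22 genes of peroxisome import and beta-oxidation, 20 were tested, 4 were higher and 3 lower, with a median of 0.043. The shares over all genes tested were 35.5% higher and 24.7% lower, with a median of 0.17. Pex14, a docking protein for import, rose by 1.33 ± 0.24 (adjusted p = 0.00148), and Pex5, an import receptor, fell by 0.51 ± 0.15 (adjusted p = 0.0185).

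Abcg2 was the gene of subfamily g that was tested. It read -0.72, -0.66, -2.86 and -2.18 on basal arrays and -0.43, -0.34, -0.52 and -1.06 on injured arrays. Basal 1 and 2 were within the range of the injured arrays, and basal 3 and 4 were below it. The difference was 1.02 ± 0.49 and was not called (adjusted p = 0.102). Without basal 1 and 2, the arrays with Pecam1 at 3.20 and 2.87, Abcg2 was called higher (1.93, adjusted p = 0.000888). Without basal 1 alone it was also called (1.31, adjusted p = 0.0451), as it was without basal 2 alone (1.33, adjusted p = 0.0415) and in the authors' deposited table (1.78, adjusted p = 0.0372). Of 12 endothelial markers, 9 were tested, 1 was higher and 2 lower, beside 35.5% and 24.7% of all genes tested. Their summed signal was 46.9 and 37.0 on basal 1 and 2 and 28.1 and 23.1 on basal 3 and 4. It was 9.60 to 12.1 on injured arrays. With dim markers included, the brightest marker made 16.2% to 26.5% of the sum on basal and 80.4% to 83.7% on injured arrays. Without that marker the sum was 17.2 to 39.4 on basal and 1.73 to 2.42 on injured arrays, a measure chosen after its values were seen. The part of endothelial RNA in the Abcg2 values was not tested.

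**Figure D4:**
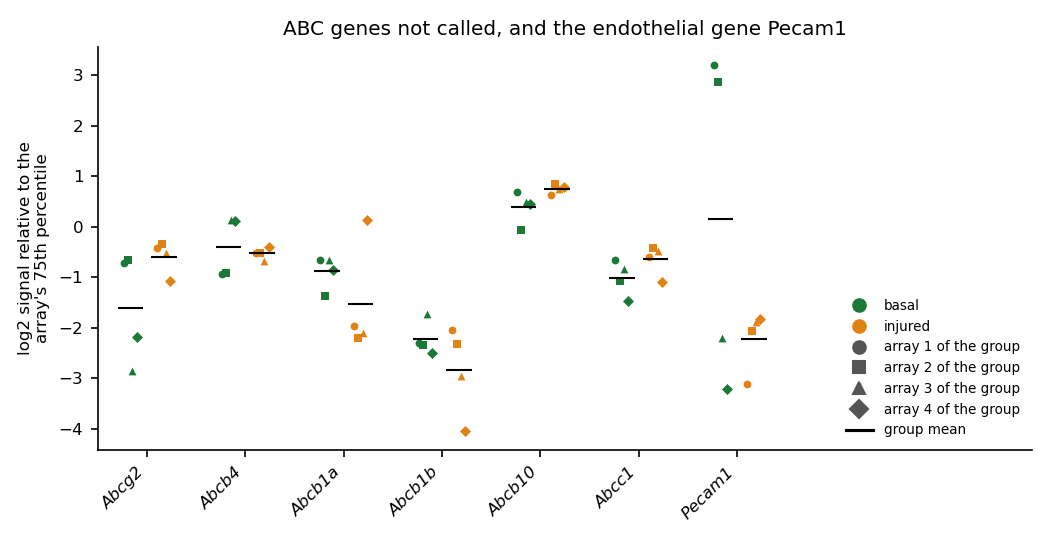
Value on each array (log2 signal relative to the array's 75th percentile) for 6 ABC genes that were not called and for the endothelial gene Pecam1, with group means as lines. Basal 1 and 2 stand above basal 3 and 4 in Abcg2 and Pecam1 and below them in Abcb4, and injured 4 stands above the other injured arrays in Abcb1a.

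The remaining members gave no test. Of the 18 genes not tested, 14 were not above background on any array. These were Abca4, Abca12, Abca13 and Abca15 of subfamily a, Abcb5, Abcb9 and Abcb11, Abcc3 and Abcc12, Abcd2, and Abcg3, Abcg4, Abcg5 and Abcg8. ABCG5 and ABCG8 together export sterols in gut and liver. The other 4 were above background on too few arrays. Among them Abca14 was above background on 2 injured arrays, Abcc2 on 1 basal array, and Abcg1 on 2 basal arrays and 1 injured array. A gene not above background on an array has only an upper bound there, which is not the same as absent.

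Probes of a gene often gave different levels. Of the 49 genes, 16 had more than 1 probe. For Abca2, Abca5, Abcc5 and Abcf1 every probe was called in the same direction as the probe that stood for the gene. For Abca17, Abcb8 and Abcc6 at least 1 probe was not above background on any array, and for Abcc8 the probes were called in opposite directions.

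**Figure D5:**
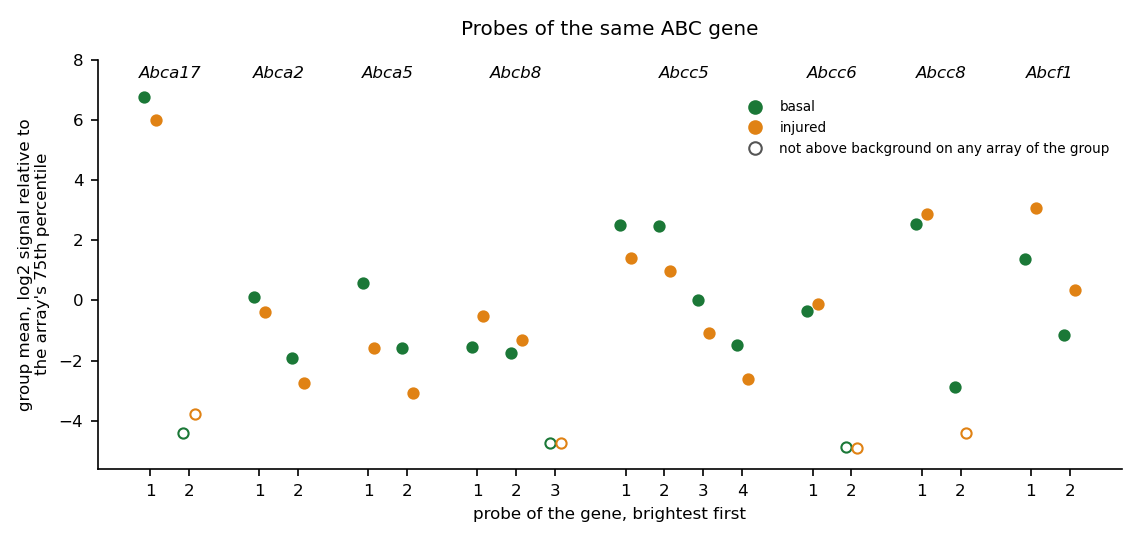
Group mean of each probe (log2 signal relative to the array's 75th percentile) for the 8 tested ABC genes with more than 1 probe, brightest probe first, with open points where no array of the group was above background. The injured mean lies on the same side of the basal mean for all probes of Abca2, Abca5, Abcc5 and Abcf1. It lies on opposite sides for the 2 probes of Abcc8, and also for those of Abca17 and Abcc6. The dimmer probes of Abca17 and Abcc6 were not above background on any array.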

How the data were processed

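Processed spot signals of 8 arrays, in intensity units, were deposited by the authors from Agilent Feature Extraction 10.7.3.1, which had subtracted background without normalization between arrays, per the file headers. A table of normalized values deposited by the authors is on a log2 scale, as read from its values, with column medians of 8.05 to 8.16. It was used as an alternative only. The submitters' processing notes name limma; the table's own steps are not given in these sources.

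Signals of spots other than controls were put on a log2 scale, less each array's 75th percentile. The 1119 spots marked as uneven or as outliers were left out, and spots of a probe were averaged. For each gene the probe with the highest mean was used. Genes well above background on at least 3 of 4 arrays of a group were tested with limma 3.58.1 in R 4.3.3 (moderated, two-sided, 6 residual degrees of freedom, Benjamini-Hochberg over 13433 genes). The fit was tested on simulated data. Precision is limited by the 4 arrays a group.

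Of 68 member probes, 67 matched a RefSeq accession of an Abc gene. Any ABC gene could be named, with all 8 values where a called difference was 1 or more, and from other lists up to 2 called genes per direction and 10 fixed genes. Myf5, Pdgfra, Xist, Ddx3y, Cmas, the neighbours of the chromosome 11 run, and members with overlapping or uneven arrays were named after their values were seen. Values of a few genes in these lists are not reported here. The members, lists and windows were chosen with earlier results of these data known. Alternatives were quantile normalization, normexp (offset 50), centring on bright probes, the authors' deposited table, other filters and probe rules, blocking on the replicate number, and omitting arrays.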

Additional observations from a re-analysis of the deposited data

Results flagged for a closer look

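Among the 62 groups of 4 arrays of ABC genes tested, 6 had an array far from the other 3, and chance flags about 1 in 20 such groups. Basal 1 was the lowest of the basal arrays in Abca5 (-0.365, nearest 0.807) and in Abca8b (-0.68, nearest 0.257). Basal 3 was the lowest in Abcb6 (-0.934, nearest -0.389), and basal 4 in Abcb8 (-1.88, nearest -1.46). Injured 4 was the highest of the injured arrays in Abca7 (0.614, nearest 0.129) and in Abcb1a (0.137, nearest -1.97).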

How the results depend on the processing

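With the authors' deposited table in place of the scanner signals, 5 ABC genes were called higher and 3 lower (9 and 14 as reported). That table also moved the median of all genes tested from 0.17 to 0.48 and the share of higher genes among all called from 59.0% to 81.3%. In it, 6 differences changed sign: Abca7 (0.33), Abcb1b (0.84), Abcb4 (0.46), Abcc5 (0.040), Abcc6 (-0.21) and Abcd3 (0.29), of which Abcc5 and Abcd3 had been called. The cause was not tested. Its Pearson's r with the scanner values across 23385 probes, which are not independent, was 0.705 to 0.929 by array, lowest on basal 4. Restricted to genes above background on all 8 arrays, 6 were called lower and 8 higher. The lower genes left out by that filter were Abca1, Abca3, Abca6, Abca8a, Abca8b, Abca9, Abcc9 and Abcc10. Each of them had passed the main filter only through the basal arrays. With the mean of all probes, Abcc8 was -0.59. Quantile normalization, normexp, centring on bright probes, no filter, the mean of all probes and separate probes gave 8 to 10 higher and 14 or 15 lower.

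Leaving out each array in turn gave 8 to 11 ABC genes higher and 12 to 14 lower, and the difference of Abcb4 ranged from -0.30 to 0.050. Abcc8 lost its call in 14 of 19 alternatives and Abcd3 in 11 of 19, and each changed sign in 1 more, while Abca8a, Abca8b, Abcc9 and Abcf1 kept theirs in every one run. Chosen after seeing the data, omitting basal 1 and 2 gave 10 higher and 14 lower, and omitting injured 2, 3 and 4 gave 1 higher and 5 lower, with Abcb1b at 0.17. The replicate number as a block gave 8 higher and 13 lower. Same-numbered arrays did not deviate together (r of -0.0026 to 0.092 over 13424 genes), so the numbers were not taken as pairs. A block for slide was not run, since each slide holds 1 group. Genes near background have only bounds.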
